A study of Mus musculus with 7 samples.

Results

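The epidermal growth factor (EGF) receptor family, its ligands and the prolactin receptor were examined in prostates of a mouse model of Notch1 activation. The genes were Egfr, Erbb2, Erbb3, Egf, Areg, Ereg, Tgfa, Hbegf, Btc and Prlr. Every non-control array probe whose accession belongs to 1 of these 10 genes in the RefSeq table was taken, whatever its values, which gave 19 probes of the 41174 on the array. Of the genes, 5 had 1 probe and 5 had several, and probes of a gene are reported separately. Of the 19 probes, 16 from 8 genes passed the filter on dim signals and were tested. The probe of Areg and both probes of Btc did not.

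Prostate RNA of 7 samples from C57Bl/6 mice was hybridised to 2-colour Agilent arrays, 1 array per sample, with a universal mouse RNA as the common reference. The labels describe the 4 controls as ROSA(N1IC) mice that are wild-type for the Notch1 intracellular domain, so the controls carry the silent ROSA allele. The 3 PB-NICD samples came from ARR2PB-Cre;ROSA(N1IC) mice, in which Cre under the prostate promoter ARR2PB turns on that domain, a constantly active piece of the receptor. These mice develop prostatic intraepithelial neoplasia. Age and prostate lobe are not given in the sources used here. Nothing in the labels says that each sample is a separate animal, so p-values measure only the spread between these samples, which may be technical. Tissue was bulk, so fewer cells of a type and less RNA per cell cannot be told apart.

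EGF, TGF-alpha, amphiregulin, epiregulin, HB-EGF and betacellulin are made as membrane-bound precursors, cut loose by proteases, and bind the EGF receptor. The receptor then pairs with itself or with a relative and signals through Ras to MAP kinases and through PI3 kinase to Akt. ErbB2 binds no known ligand of its own, and ErbB3 binds neuregulins and has little kinase activity of its own, so both depend on partners. The prolactin receptor is a cytokine receptor that signals through Jak2 and Stat5, and prolactin acts on the growth of prostate epithelium in rodents. EGF is a secreted product of rodent prostate epithelium.

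All values are log2 ratios of prostate over reference unless a signal is named, and a change is the mean of PB-NICD less that of control. Across arrays the sample channel was dim, with a median spot signal of 69 to 87.5 on controls and 88 or more on PB-NICD arrays over a local background of 53 to 55. Slide 1 held control 1, control 2 and the array labelled PB-NICD 1, and slide 2 held the other 4 arrays. The array labelled PB-NICD 1 stood apart. Its mean absolute log2 ratio was 0.27, against 0.53 to 0.68 on the other 6 arrays. Its Notch1 spot was marked as an outlier and read 0.64 when kept, within the controls' 0.05, 0.30, 0.76 and 0.67, whereas the other PB-NICD arrays read 2.63 and 2.74. Notch1 rose by 2.24 (adjusted p = 0.00217, limma) with that spot missing and changed by 1.56 (adjusted p = 0.125) with it kept. The Notch targets Heyl and Hes1 were above all controls on it, at 1.59 and 2.50, but a further Heyl probe read 0.24 there, below control 3 at 0.25. The main values of the member genes are given with and without it.

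To show the control regions of the members with the largest changes, and of the receptor that binds the ligands, the 250 bases upstream of the first listed start of Egf, Prlr and Egfr are printed from the RefSeq promoter table (build GRCm38.p6). The Notch1 intracellular domain acts through the DNA-binding protein RBPJ, so the core RBPJ motif TGGGAA was searched on both strands and its match is in capitals. The windows are chr3:129755323-129755572 on the minus strand for Egf, chr15:10176988-10177237 on the plus strand for Prlr and chr11:16751953-16752202 on the plus strand for Egfr.
Egf: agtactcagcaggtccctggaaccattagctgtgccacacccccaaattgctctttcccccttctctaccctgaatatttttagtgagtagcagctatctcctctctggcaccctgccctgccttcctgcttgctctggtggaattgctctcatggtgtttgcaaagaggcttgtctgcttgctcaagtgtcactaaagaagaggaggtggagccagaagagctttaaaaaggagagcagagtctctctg
Prlr: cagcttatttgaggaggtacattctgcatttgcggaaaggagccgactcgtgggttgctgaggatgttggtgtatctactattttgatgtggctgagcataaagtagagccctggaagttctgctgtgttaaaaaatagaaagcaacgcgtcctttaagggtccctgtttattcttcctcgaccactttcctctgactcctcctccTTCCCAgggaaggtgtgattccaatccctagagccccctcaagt
Egfr: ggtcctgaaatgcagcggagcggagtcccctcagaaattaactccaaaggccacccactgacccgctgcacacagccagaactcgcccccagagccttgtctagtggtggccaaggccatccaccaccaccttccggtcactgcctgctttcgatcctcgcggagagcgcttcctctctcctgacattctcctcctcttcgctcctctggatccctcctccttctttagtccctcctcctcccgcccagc
The Prlr window held 1 match, on the opposite strand, that began at position -44, where -1 is the base just before the start. Neither Egf nor Egfr held one. Of 10 windows of 7 member genes searched, the only other match was in Areg, at -165. The motif occurred in 21.6% of all 32851 upstream windows in the table, and a match describes the letters alone.

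The comparison of PB-NICD with control asked how prostates labelled as carrying the active domain differ. The largest differences lay in the EGF precursor and the prolactin receptor, whose ratios were lower on all 3 PB-NICD arrays, and in Egfr, whose ratio was higher on all 3 by its 2 brightest probes. None of these passed the threshold in the model with group alone, and 3 did with slide as a block. With limma across all 21282 tested probes (two-sided, adjusted p below 0.05), 0 of 16 member probes were called, against 2.33% of all probes. With slide as a fixed block 3 were called, Egf, Prlr and Egfr A_52_P56471, against 8.14% of all probes. At an unadjusted p below 0.05 and with group alone there were 6, against 14.4% of all probes. Of the 16, Tgfa A_52_P555423 passed the filter through PB-NICD arrays alone, and both fainter Egfr probes, Ereg and the brighter Tgfa probe passed with fewer than 3 controls. The 16 tested member probes were higher in 10 cases and lower in 6, with a median change of 0.14 beside -0.05 for all tested probes. Genes with several probes weigh more in that count. By the brightest tested probe of each of the 8 genes, 3 were higher and 5 lower, with a median change of -0.11. On 2 of 16 probes every PB-NICD array lay above all controls, against 4.91% of all probes, and on 3 every PB-NICD array with a value lay below them, against 13.7%. With centring on the median in place of loess, the median of all probes moved to 0.11.

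**Figure D1:**
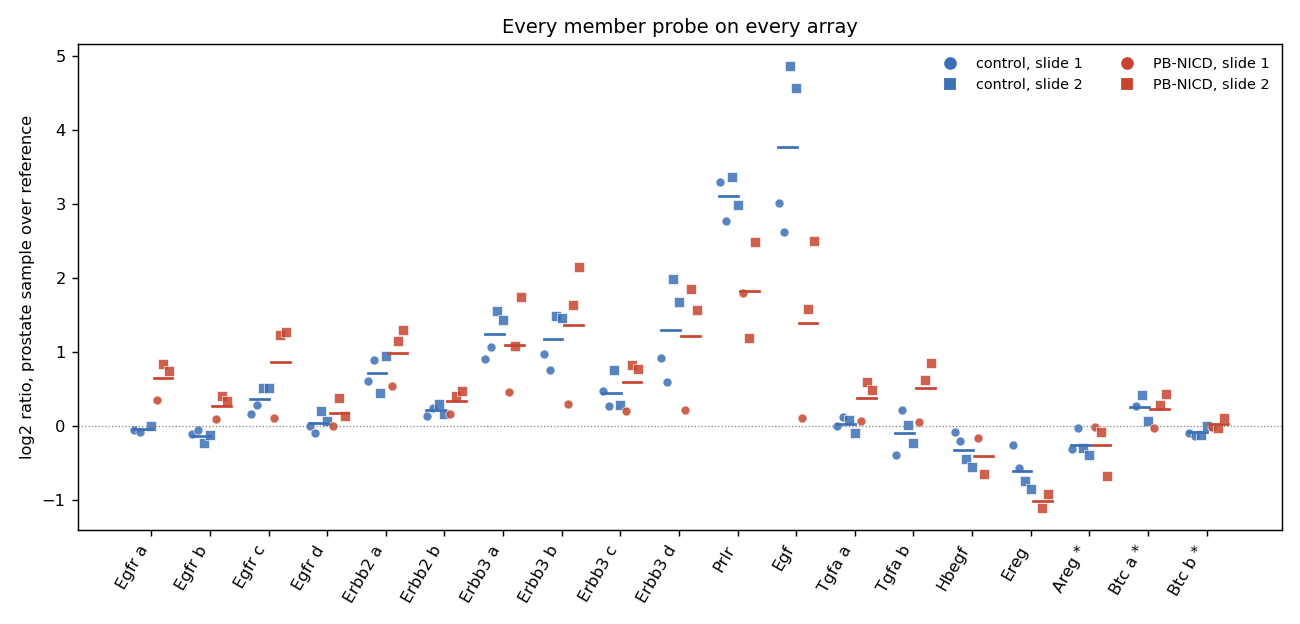
Log2 ratio of prostate over reference (y axis) for each of the 19 member probes (x axis) on each array, with blue for control, red for PB-NICD, circles for slide 1, squares for slide 2 and a bar for each group mean. Probes of a gene are lettered from the brightest in the sample channel, and a star marks a probe that was not tested. Egf and Prlr have the highest control ratios of the set and lie lower on every PB-NICD array, and all 4 Erbb3 probes are lowest on the red circle, the array labelled PB-NICD 1.

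Among the receptors, Egfr was measured by 4 probes. The brightest, A_52_P56471 (transcript NM_007912), read -0.05, -0.08 and 0.0035 on controls 1, 2 and 4, with an outlier spot on control 3 set to missing. On the arrays labelled PB-NICD 1, 2 and 3 it read 0.35, 0.84 and 0.75. The groups did not overlap, and the outlier spot, if kept, read 0.03, also below every PB-NICD array. The mean moved from -0.04 ± 0.04 (SD, n = 3) to 0.65 ± 0.26 (SD, n = 3), a change of 0.69 ± 0.16 (SE) or 1.62-fold, with an adjusted p of 0.0766 (limma) and a 95% interval of 0.32 to 1.07. Its unnormalized sample signals ran from 170 to 314 on controls and from 559.5 to 764 on PB-NICD arrays, while the reference signals, 2361 to 2649 and 2073.5 to 2200, were bright on every array. Sample signals of all probes were also higher on the PB-NICD arrays, as given above.

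The next Egfr probe, A_52_P106259 (NM_207655), was spotted several times and read -0.11, -0.06, -0.23 and -0.12 on controls and 0.10, 0.40 and 0.34 on PB-NICD arrays. Its groups did not overlap either, and the change was 0.41 ± 0.13 (SE) with an adjusted p of 0.156 (limma). The third, A_51_P392242 (NM_007912), read 0.17, 0.28, 0.52 and 0.51 on controls and 0.11, 1.23 and 1.28 on PB-NICD arrays. Here the arrays labelled PB-NICD 2 and 3 were well above the controls and the array labelled PB-NICD 1 was below all of them, for a change of 0.50 ± 0.27 (SE) and an adjusted p of 0.470 (limma). The faintest, A_52_P674338 (NM_207655), read 0.01, -0.10, 0.20 and 0.07 on controls and -0.0027, 0.38 and 0.14 on PB-NICD arrays, with a change of 0.13 ± 0.14 (SE), or 0.22 without the array labelled PB-NICD 1. It was well above background on 1 control and 2 PB-NICD arrays.

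Without the array labelled PB-NICD 1, limma called 3 of the 4 Egfr probes higher, against 6.84% of all probes. Egfr A_52_P56471 then changed by 0.84 (adjusted p = 0.00669), A_52_P106259 by 0.50 (0.0415) and A_51_P392242 by 0.88 (0.00561). Of these, A_51_P392242 was well above background on 2 controls and 3 PB-NICD arrays. It passed the filter only with the PB-NICD arrays counted, so its p-values follow in part from that choice. With slide as a fixed block, where 8.14% of all probes were called, only A_52_P56471 passed among the Egfr probes, at 0.61 and an adjusted p of 0.0352. Within slide 2 (6.62% of probes called) A_52_P56471 rose by 0.79 (adjusted p = 0.0454) and A_51_P392242 by 0.73 (0.0168). Within slide 1 (13.4% of probes called) no Egfr probe passed, and their changes there included 0.42 for A_52_P56471 and -0.12 for A_51_P392242. For A_52_P56471 the adjusted p (limma) was 0.00171 without background subtraction (1892 of 21282 probes called) and 4.3e-05 with the authors' deposited table (4525 of 21282). Its sign was the same in all 23 alternatives and its call was made in 8.

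Erbb2, the receptor without a ligand of its own, had 2 probes, both of NM_001003817. A_51_P216179 read 0.61, 0.90, 0.45 and 0.94 on controls and 0.54, 1.14 and 1.29 on PB-NICD arrays, with a change of 0.27 ± 0.21 (SE). A_52_P49250 read 0.14, 0.24, 0.29 and 0.17 on controls and 0.16, 0.40 and 0.47 on PB-NICD arrays, with a change of 0.13 ± 0.13 (SE). On both, the arrays labelled PB-NICD 2 and 3 were above every control and the array labelled PB-NICD 1 lay among them. Adjusted p-values were 0.661 and 0.743 (limma), and the 95% intervals ran from -0.20 to 0.73 and from -0.15 to 0.42. The changes were 0.49 and 0.22 without the array labelled PB-NICD 1 (adjusted p = 0.116 and 0.350). Fitted to the authors' deposited table, where 4525 of 21282 probes were called, both passed, at 0.56 (adjusted p = 0.00876, limma) and 0.27 (0.0314). With the software's processed signals, where 1380 of 21282 were called, the brighter probe passed, at 0.67 (0.0421).

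Erbb3, the neuregulin-binding partner of ErbB2, had 4 probes, all of NM_010153. Its brightest probe, A_51_P342050, read 0.90, 1.08, 1.56 and 1.43 on controls and 0.46, 1.08 and 1.75 on PB-NICD arrays. A_51_P488243 read 0.97, 0.76, 1.49 and 1.46 on controls and 0.31, 1.63 and 2.15 on PB-NICD arrays. These values split by slide within the controls, with slide 2 higher, and the same held among PB-NICD arrays. A_52_P133607 showed the same split, at 0.91 and 0.60 on slide 1 and 1.98 and 1.68 on slide 2 in controls, and 0.22 against 1.85 and 1.57 on PB-NICD arrays. A_51_P414813 read 0.47, 0.27, 0.76 and 0.28 on controls and 0.20, 0.83 and 0.78 on PB-NICD arrays. All 4 were lowest on the array labelled PB-NICD 1. Changes were -0.14 ± 0.29, 0.19 ± 0.39, -0.08 ± 0.43 and 0.16 ± 0.19 (SE) in the order given, with adjusted p-values of 0.813 to 0.966 (limma). They were 0.17, 0.72, 0.41 and 0.36 without the array labelled PB-NICD 1, with adjusted p-values of 0.101 to 0.733. A_51_P488243 was called in the authors' deposited table, where 4525 of 21282 probes were called, at 0.47 (adjusted p = 0.0242, limma). Signs differed between the probes, and the 95% interval of A_51_P342050 ran from -0.79 to 0.50.

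**Figure D2:**
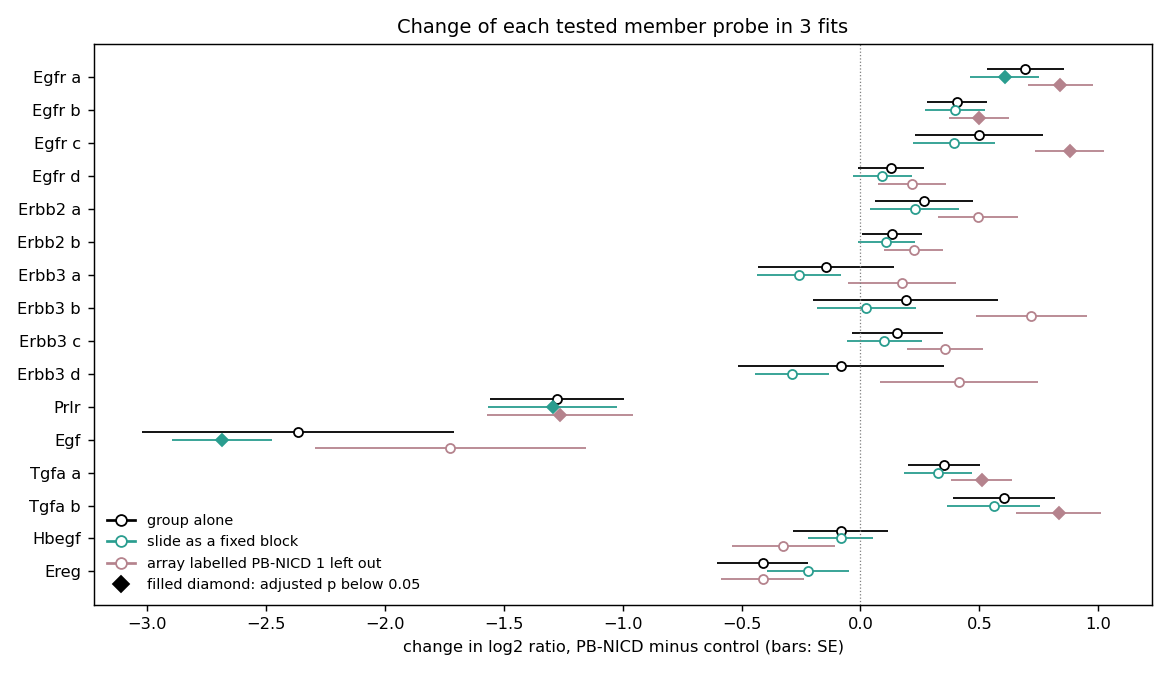
Change in log2 ratio, PB-NICD minus control, with SE bars, for the 16 tested member probes in 3 fits, namely group alone (black), slide as a fixed block (green) and the array labelled PB-NICD 1 left out (mauve). Filled diamonds mark an adjusted p below 0.05. No probe is filled with group alone. Prlr is filled in the other fits, where 8.14% and 6.84% of all probes were called, at -1.29 and -1.26. Without that array 3 Egfr and 2 Tgfa probes are filled too. Of these, Egfr c and both Tgfa probes passed the filter only with the PB-NICD arrays counted. Tgfa b is the probe that no control measured above background.

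Among the ligands, Egf showed the largest change of any member. Its probe A_52_P38627 (NM_010113), averaged over replicate spots, read 3.01, 2.62, 4.86 and 4.57 on controls 1 to 4. On the arrays labelled PB-NICD 1, 2 and 3 it read 0.12, 1.58 and 2.50. The groups did not overlap, and within each group the slide 2 arrays were higher than those of slide 1. The mean moved from 3.77 ± 1.12 (SD, n = 4) to 1.40 ± 1.20 (SD, n = 3). That is a change of -2.37 ± 0.66 (SE), or 5.16-fold lower, with an adjusted p of 0.114 (limma) and a 95% interval of -3.85 to -0.89.

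Before normalization the sample signals of Egf were 211.8, 185.8, 772.6 and 554.3 on controls and 98.5, 141.2 and 222.1 on PB-NICD arrays. Each PB-NICD array was below both controls of its slide, although the array labelled PB-NICD 3 lay above controls 1 and 2. The reference signal was low, 93.2 to 148.6, and well above background on 4 of 7 arrays, so the ratio rests on a faint denominator, while the sample channel was well above background on all 7.

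With slide as a fixed block, Egf changed by -2.68 and was called (adjusted p = 6.4e-05, limma). Within slide 1 it changed by -2.70 (adjusted p = 3.8e-05) and within slide 2 by -2.68 (0.000402). Slide 1 has a single PB-NICD array, which the fit takes to vary as the controls do. Without the array labelled PB-NICD 1 the change was -1.72 and was not called (adjusted p = 0.109). Fitted to the authors' deposited table, where 4525 of 21282 probes were called, it was -2.42 with an adjusted p of 0.000121 (limma). Over 23 alternatives the change ran from -2.92 to -1.69, always lower in PB-NICD, and 8 of them called it.

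Tgfa, which encodes TGF-alpha, had 2 probes of NM_031199. A_51_P415126 read 0.01, 0.12, 0.08 and -0.09 on controls and 0.06, 0.59 and 0.49 on PB-NICD arrays, with a change of 0.35 ± 0.15 (SE) and an adjusted p of 0.333 (limma). A_52_P555423 read -0.38, 0.21, 0.02 and -0.22 on controls and 0.05, 0.62 and 0.86 on PB-NICD arrays, with a change of 0.60 ± 0.22 (SE) and an adjusted p of 0.219 (limma). On both probes the arrays labelled PB-NICD 2 and 3 lay above every control and the array labelled PB-NICD 1 lay among them. A_51_P415126 was well above background on 2 controls and 3 PB-NICD arrays. It passed the filter only with the PB-NICD arrays counted, so its p-values follow in part from that choice. Without the array labelled PB-NICD 1, where 6.84% of all probes were called, it was called at 0.51 (adjusted p = 0.0427, limma). Slide 2 alone gave 0.54 (adjusted p = 0.0716) and slide 1 alone -0.0013. A_52_P555423 was well above background on all 3 PB-NICD arrays and on none of the 4 controls. It passed the filter through the PB-NICD arrays alone, so its p-values follow in part from that choice and support nothing. Its mean normalized sample signal was 7.53 in PB-NICD and 6.96 in control on the log2 scale, 1.48-fold higher in PB-NICD. The comparator on each control was the higher of the lowest signal well above background and the probe's own signal, here its own on all 4. The value is therefore the fold of the group means and not a lower bound, and it is open to dye bias. Its change was 0.83 without the array labelled PB-NICD 1, 0.84 within slide 2 and 0.14 within slide 1.

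Hbegf, which encodes HB-EGF, read -0.08, -0.19, -0.45 and -0.55 on controls and -0.16 and -0.64 on the arrays labelled PB-NICD 1 and 2, with an outlier spot missing on PB-NICD 3 that read -0.45 when kept. Its groups overlapped and the change was -0.08 ± 0.20 (SE), with a 95% interval of -0.55 to 0.38. Without the array labelled PB-NICD 1 the change was -0.32, with that of PB-NICD 2 as the only PB-NICD value. Ereg, which encodes epiregulin, read -0.26, -0.56, -0.74 and -0.84 on controls and -1.11 and -0.91 on the arrays labelled PB-NICD 2 and 3, an outlier spot being missing on the array labelled PB-NICD 1. Both values lay below all controls, for a change of -0.41 ± 0.19 (SE) and an adjusted p of 0.390 (limma). Kept, the missing Ereg spot read -0.11, above every control. Ereg was well above background in the sample channel on 1 control and 2 PB-NICD arrays only, and its sample signals, 63 to 76 on controls and 70 to 85 on PB-NICD arrays, overlapped.

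Areg, which encodes amphiregulin, and Btc, which encodes betacellulin, were not well above background in the sample channel on any of the 7 arrays. The Areg sample signal was 51 to 54 on controls and 57 to 59 on PB-NICD arrays, at about the background of the scanner. The Btc probe A_51_P138429 had sample signals of 60 to 69 and 59 to 78, and A_52_P672689 had 52.5 to 54.5 and 53.5 to 59. Their log2 ratios were -0.39 to -0.03 on controls and -0.68 to -0.01 on PB-NICD arrays for Areg, and -0.13 to 0.42 and -0.02 to 0.43 over both Btc probes. Signal over background limits what can be said of these ligands, and no difference was detectable for them.

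**Figure D3:**
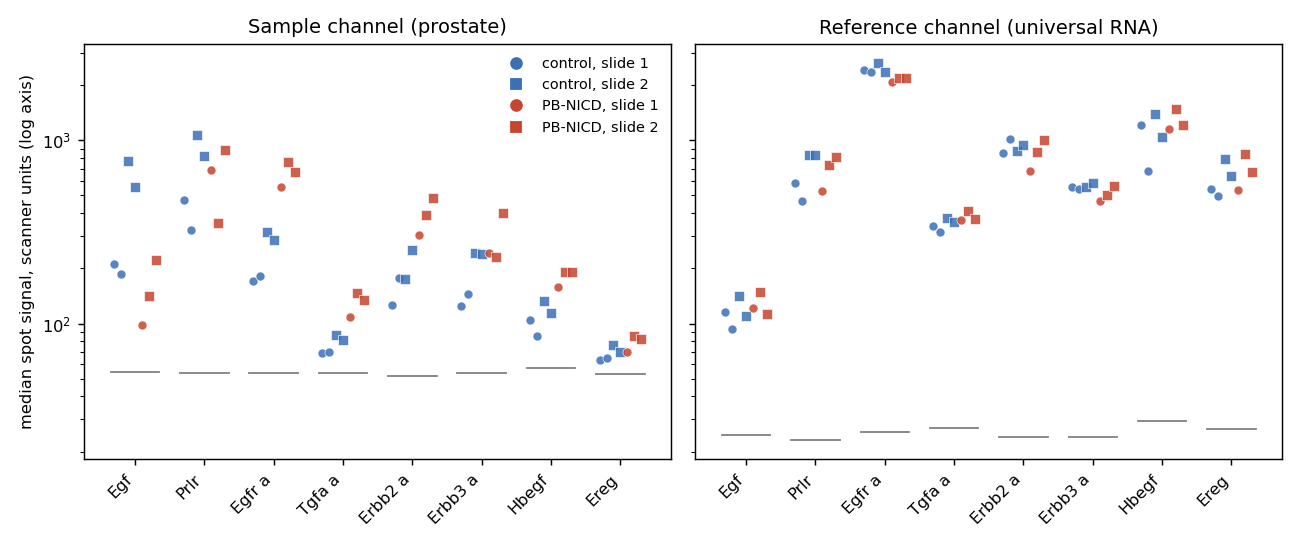
Median spot signal before normalization (log y axis, scanner units) of 8 member probes in the sample channel (left) and reference channel (right). The grey line is the median over arrays of the local background, with blue for control and red for PB-NICD. Egf is bright in control prostate, up to 772.6, and faint in the reference at 93.2 to 148.6, and Ereg sits just above background in the sample channel.

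Prlr, the prolactin receptor, had the lowest p of the members. Its probe A_52_P458279 (NM_011169) read 3.29, 2.77, 3.37 and 2.99 on controls and 1.80, 1.19 and 2.49 on the arrays labelled PB-NICD 1, 2 and 3. Every PB-NICD array was below every control, and unlike Egf the controls did not split by slide. The mean moved from 3.1 ± 0.28 (SD, n = 4) to 1.83 ± 0.65 (SD, n = 3). The change was -1.28 ± 0.28 (SE), or 2.42-fold lower, with an adjusted p of 0.0532 (limma) and a 95% interval of -1.91 to -0.64.

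The unnormalized sample signals of Prlr did not separate the groups. They were 470.5, 325, 1075.5 and 817 on controls and 691.5, 355.5 and 885 on PB-NICD arrays, and the reference signals were 465 to 836.5 and 529 to 809. The groups separated in the normalized ratio and not in these signals. When arrays were scaled to a common spread, the change was 1.36 in the opposite direction and not called (adjusted p = 0.736). Median centring gave -0.88 (adjusted p = 0.726) and the authors' deposited table -0.80 (0.0902).

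Prlr was called lower by limma in 9 of 23 alternatives. With slide as a fixed block it changed by -1.29 (adjusted p = 0.0164) and within slide 1 by -1.23 (0.00739), while within slide 2 the change was -1.34 with an adjusted p just above 0.05. The slide 1 value sets 1 PB-NICD array, the one labelled PB-NICD 1, against 2 controls. Without the array labelled PB-NICD 1 the change was -1.26 and was called (adjusted p = 0.0365), and without PB-NICD 3 it was -1.61 (0.0142). With only the brightest probe of each gene tested, where 2.67% were called, the adjusted p was 0.0470. Leaving out PB-NICD 2 gave -0.96 (0.113).

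**Figure D4:**
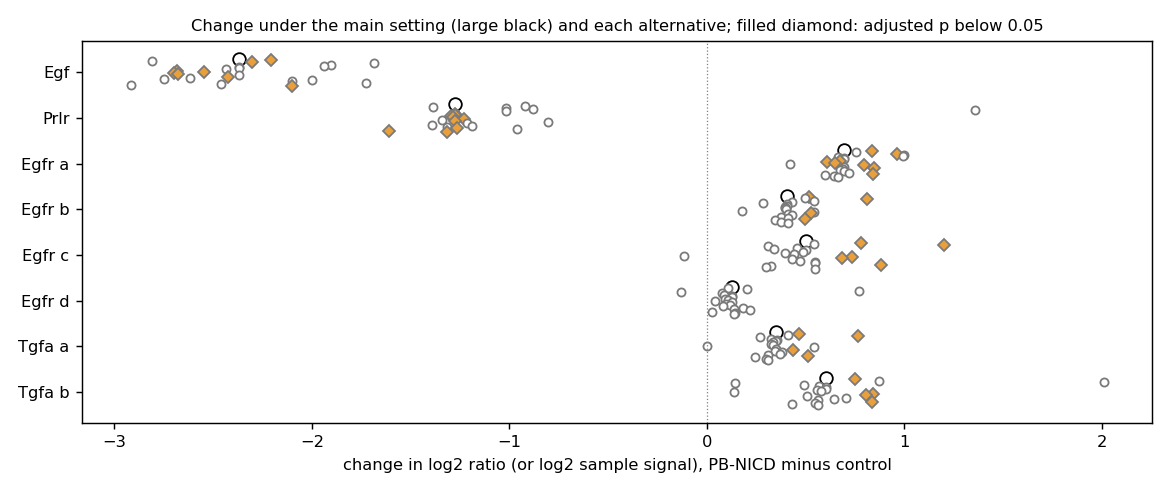
Change, PB-NICD minus control, of 8 member probes under the reported setting (large open black circles) and each alternative (small points, with filled diamonds where the adjusted p was below 0.05). Egf stays between -2.92 and -1.69, the Prlr points lie at or below -0.80 apart from 1 at 1.36, and the Egfr a points lie between 0.42 and 1.00.

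Some markers of the cell types in the tissue also differed between the groups, and their part in the member changes was not tested. Of 8 prostate secretory genes listed, 6 were tested, 5 were lower and none was called. Their mean log2 ratio was 5.41 to 6.51 on controls and 3.51, 4.42 and 5.99 on the arrays labelled PB-NICD 1, 2 and 3. Among the PB-NICD arrays Egf had that order too, but among controls the list mean was highest on control 1 and lowest on control 3, where Egf was highest. The means are over the genes with a value on each array. Sbp, a spermine-binding secretory protein, read 9.50 to 11.5 on controls and 0.54, 4.75 and 9.44 on those arrays. Pbsn, which encodes probasin, read 10.1 to 11.7 on controls and 9.06, 9.81 and 10.1, while Msmb read 3.82, 5.31 and 3.95 on those arrays. All 6 tested basal cell markers were lower and 4 were called (Krt5, Krt15, Lgals7 and Itga6), with list means of 0.97 to 1.53 on controls and 0.15, 0.34 and 0.46. Luminal markers averaged 2.70 to 3.29 on controls and 2.21, 2.73 and 3.18, with 1 of 6 called lower, Cd24a. Cd24a had values on controls 2 and 4 (5.55 and 5.59) and the arrays labelled PB-NICD 2 and 3 (3.05 and 4.09) only. The 6 smooth muscle and 5 fibroblast genes tested were all lower, none of them called, with medians of -0.55 and -0.22. Under the other scalings the median of the secretory list, -0.37 as reported, ran from -0.78 to 4.67, and without the array labelled PB-NICD 1 it was -0.13. That of the smooth muscle list ran from -0.47 to 2.18 and that of the basal list, -1.03, from -1.27 to -0.74. Of 3 urothelial genes tested, 2 were higher and 1 lower, and 1 was called, Upk3a, which was higher. Upk3a had values on controls 2 and 4 (-0.06 and -0.19) and the arrays labelled PB-NICD 1 and 2 (5.25 and 4.23) only. Upk2 changed by 0.07 and Upk1b by -1.16. Leukocyte (3 genes) and endothelial (1 gene) markers gave no call. The seminal vesicle gene Svs4 read 9.39 on control 2 and 2.36 on control 1, against -0.03 and -0.28 on controls 3 and 4 and 0.66 to 3.42 on PB-NICD arrays.

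Around the receptors, no gene of the pathway passed the test. Over 6 related lists, 54 genes were tested by their brightest probe, 20 were higher and 34 lower, 0 were called by limma, against 2.67% of genes and transcripts tested by their brightest probe, and 9 had an unadjusted p below 0.05, against 14.4% of all probes. Both counts are near those shares. Their median change was -0.03, beside -0.05 for all probes. The median of each of the 6 lists took the opposite sign under at least 1 other scaling. Of the other receptor and ligands, Nrg1 (neuregulin 1) changed by 0.30 and Erbb4 by -0.0017. Among the proteases and regulators of ligand shedding 3 of 7 were higher, with Rhbdf1, an iRhom that directs the sheddase Adam17, at 0.42 (adjusted p = 0.131) and Adam15 at 0.40.

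Adaptors and kinases were lower for 15 of 21 genes with a median change of -0.27, which lay between -0.19 and 0.05 under the other scalings. Pik3r1, a regulatory subunit of PI3 kinase, changed by -0.60 (adjusted p = 0.157) and Hras by -0.57 (0.155). The feedback inhibitors had a median of 0.05 over 11 genes, with Dusp6, a phosphatase of ERK, at -0.47 (adjusted p = 0.117) and Lrig3 at 0.42. Of 4 MAP kinase induced genes the median was -0.14, with Phlda1 at 0.47 and Etv4 at -0.19. Prolactin and growth hormone signalling had a median of -0.02 over 9 genes, with Ghr, the growth hormone receptor, at 0.22 and Ptpn6 at -0.15. With slide as a fixed block limma called 4 of the 54, near the share of 8.14% of all probes. All 4 were lower, as were 1500 of the 1732 calls over all probes. The 4 were Hras at -0.63 (adjusted p = 0.0122), Pik3r1 at -0.71 (0.0251), Akt1 at -0.50 (0.0330) and Dusp6 at -0.44 (0.0457). Without the array labelled PB-NICD 1 limma called 2, against 6.84% of all probes. These were Adam15 at 0.67 (0.0158) and Dusp6 at -0.55 (0.0364), while Nrg1 was at 0.09 and Phlda1 at 0.71.

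**Figure D5:**
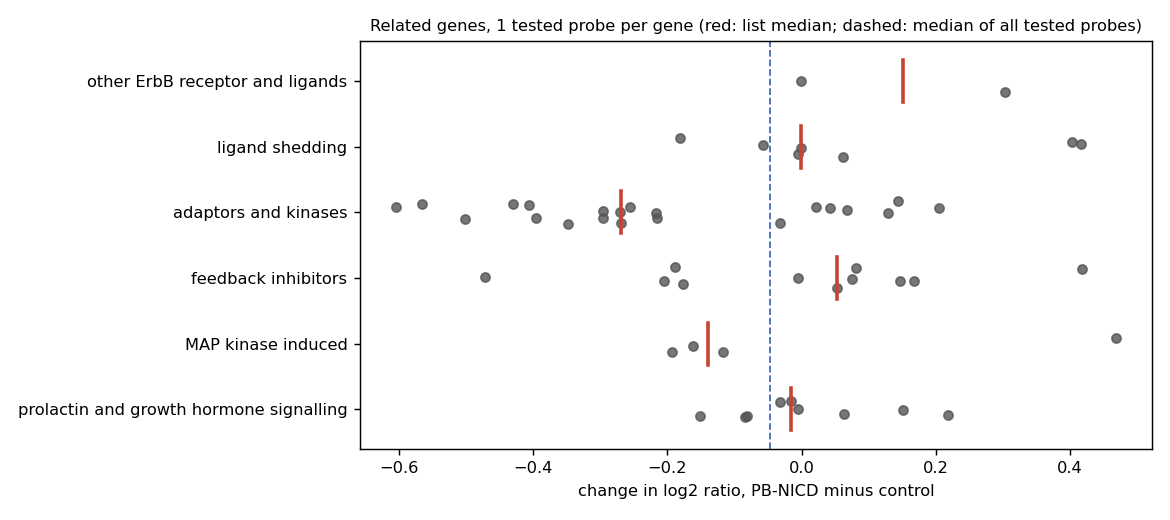
Change in log2 ratio, PB-NICD minus control, of each tested gene (grey points, 1 probe per gene) in 6 lists of related genes, with the list median in red and the median of all tested probes dashed. Points of every list lie on both sides of 0, and the adaptors and kinases have the lowest median, -0.27.

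The probe profiles most like that of Prlr, by the root mean square difference over the 7 arrays after each profile was centred, among 10588 named probes, were those of Csrp2 (difference 0.22), Pi16 (0.23) and Uqcr11 (0.27). Csrp2 encodes a LIM domain protein and Uqcr11 a subunit of respiratory complex III. Their changes were -1.25, -1.13 and -1.18, which the choice by likeness largely fixes, so no test is given.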

How the data were processed

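Expression in 7 prostate samples, 4 control and 3 PB-NICD, was measured against a universal mouse reference RNA, the sample in the red channel and the reference in green, with no dye swap, per the labels. Intensity values were read by Agilent Feature Extraction 10.7.3.1, per the file headers, and the deposited intensity columns used are median spot and local background signals, not normalized, and the software's processed signals, background-subtracted and dye-normalized. The deposited LogRatio is a log10 ratio of red over green and served to check the direction. Deposited flags of 0 or 1, not scores, mark spots well above background, saturated or outliers. No member spot was saturated. The authors' deposited value table is on a log2 scale by its values, with unstated normalization, and correlated across probes with its own array at r = 0.849 to 0.895. With each probe centred over the arrays, r was 0.510 to 0.712 with the own array and at most 0.358 with another.

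Background was corrected by normexp (offset 50), then loess was run within each array, with limma 3.58.1 (R 4.3.3). Control spots had weight 0, outlier spots were set to missing, and spots of a probe were averaged. A probe entered the test if 0.5 or more of its red spots were well above background on 3 or more arrays and each group had 2 or more values. The model had group alone (lmFit and eBayes, two-sided, Benjamini-Hochberg over 21282 probes, threshold 0.05). Of 41174 probes, 24375 received a symbol through RefSeq accessions without versions. Mean signals had been planned, but the files hold medians. On simulated data 57% of probes with a log2 change of 1 and 91% of those with a change of 2 were recovered.

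Whether the titles' replicate numbers pair the samples is not known. Residuals of same-numbered arrays correlated at 0.35, -0.35 and 0.26. Residuals of control and PB-NICD arrays correlated positively within a slide and negatively across slides. Control 2 and PB-NICD 2 lie on different slides, so these values cannot decide on pairing. Members and gene lists were chosen with earlier results of these data known. All member probes are named, and the related genes named are the 2 largest changes of each list. Precision is limited by the array number, 4 against 3. Alternatives covered background correction, normalization, filters, outlier spots, slide, probe choice, the deposited table, each array left out and a replicate block.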

Additional observations from a re-analysis of the deposited data

How the results depend on the processing

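The number of all probes called, 495 as reported, was 1892 without background subtraction, 1380 with processed signals of the software, 1 after median centring, 29 with scaling between arrays, 323 with the sample channel alone, 1732 with a fixed slide block, 1180 with a random one, 2394 within slide 1, 1301 within slide 2, 4525 in the authors' table and 175 with the replicate number as a block. Leaving out each array gave 205 (without control 4) to 1456 (without the array labelled PB-NICD 1). The share of calls that were higher, 16% as reported, was 43.2% without background subtraction, 44.5% with processed signals, 31.0% with scaling, 28.5% with the sample channel alone and 52.0% without the array labelled PB-NICD 1. Member probes called were 0 of 16 as reported, where 495 of 21282 probes were called. Calls among all tested probes follow in brackets. An offset of 16 (439 of 21282), median centring (1 of 21282) and scaling between arrays (29 of 21282) each gave 0. The sample channel alone gave 0 (323 of 21282), and no filter on dim probes gave 0 of 19 (462 of 37411). There were 6 without background subtraction (1892 of 21282) and 6 with processed signals (1380 of 21282). Requiring signal well above background on all arrays gave 1 of 11 (560 of 14174), and keeping outlier spots gave 2 (729 of 24843). Slide as a fixed or random block gave 3 each (1732 and 1180 of 21282), and slide 2 alone 4 (1301 of 19645). The brightest probe per gene gave 1 of 8 (453 of 16939). The authors' table gave 9 (4525 of 21282) and the replicate block 2 (175 of 18863). Leaving out each array gave 0, apart from 6 without the array labelled PB-NICD 1 (1456 of 21282) and 1 without PB-NICD 3 (458 of 21282). Of the alternatives for member probes, 285 kept direction and side of the threshold, 46 became called in the same direction and 26 changed sign.

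Signs turned for these. Within slide 1, Egfr A_51_P392242 changed by -0.12, Erbb2 A_51_P216179 by -0.21, Erbb2 A_52_P49250 by -0.032, Erbb3 A_51_P488243 by -0.56, Erbb3 A_51_P414813 by -0.17, Tgfa A_51_P415126 by -0.0013, Adam15 by -0.070, Phlda1 by -0.17 and Erbb4 by 0.026. Without background subtraction, Erbb3 A_51_P342050 changed by 0.14, Erbb3 A_52_P133607 by 0.26 and Erbb4 by 0.050. Processed signals gave 0.10 and 0.044 for these Erbb3 probes, 0.12 for Ereg, 0.45 for Erbb4, 0.095 for Etv4 and 0.082 for Ptpn6. Median centring gave -0.13 for Egfr A_52_P674338, 0.18 for Erbb3 A_51_P342050, 0.13 for Erbb4 and 0.097 for Ptpn6. Scaling gave 0.42 and 0.11 for these Erbb3 probes, 1.36 for Prlr, -0.41 for Nrg1, 0.022 for Erbb4, -0.026 for Ghr and 0.50 for Uqcr11. The sample channel alone gave 0.31 for Hbegf and 0.060 for Ptpn6. The authors' table gave 0.17 and 0.20 for these Erbb3 probes and 0.020 for Erbb4. Erbb4 changed by 0.0025 with an offset of 16, 0.026 with slide as a fixed block and 0.0060 as a random block. Leaving out each array gave -0.47 to 0.17 for Erbb3 A_51_P342050, -0.20 to 0.72 for Erbb3 A_51_P488243, -0.40 to 0.41 for Erbb3 A_52_P133607, -0.32 to 0.16 for Hbegf, -0.14 to 0.13 for Erbb4 and -0.39 to 0.0013 for Etv4. The cause of these turns was not tested.

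With the replicate number as a block, Egf changed by -2.10 (adjusted p = 0.0439, limma), Prlr by -1.32 (0.0367) and Erbb3 A_52_P133607 by 0.047. Since it is not known whether the numbers pair the samples, these are values only. Low signal over background limits the values of Areg, Btc, Ereg, the fainter Tgfa probe and the faintest Egfr probe, and the faint reference limits that of Egf.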
